A study of Mus musculus with 24 samples.

Results

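The 9 genes described here, *Atf4*, *Atf5*, *Ddit3*, *Asns*, *Trib3*, *Gdf15*, *Psat1*, *Phgdh* and *Mthfd2*, belong to the ATF4 arm of the integrated stress response. They were taken by name from the deposited expression tables, in which each has 1 Ensembl identifier. All 9 were among the 15667 genes listed for uninjected hearts and the 15327 listed for injected hearts. Mice without Xinβ, a muscle protein encoded by *Xirp2*, were compared with wild-type (WT) controls to ask how the heart transcriptome changes after its loss and whether an active form of the transcriptional coactivator YAP alters that change. RNA was sequenced in 24 heart libraries at postnatal day 7.5, 4 in each of 6 groups. The labels name the heart apex as the tissue, and the study's methods name the ventricles.

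The uninjected groups were WT and Xinβ KO. In the KO allele a LacZ and neomycin-resistance cassette replaces part of *Xirp2* in every cell of the animal, on a C57BL/6 background. The injected groups received an adeno-associated virus of serotype 9 (AAV9) on postnatal day 1 and are written WT/GFP, Xinβ KO/GFP, WT/YAP and Xinβ KO/YAP. The virus carried green fluorescent protein (GFP) as the control, or human YAP with the S127A change, which removes a phosphorylation site that keeps YAP out of the nucleus. Both were driven by the chicken cardiac troponin T promoter, which is active in cardiomyocytes, whereas *Xirp2* was deleted throughout the animal. Controls were littermates, and the labels give each library as a separate sample without naming the animal. Uninjected libraries were read as single ends and injected libraries as paired ends, in separate runs, so groups are compared only within a table, and levels of the 2 tables that stand side by side were not normalized together.

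The integrated stress response starts when one of a family of kinases phosphorylates the initiation factor eIF2, which slows translation in general but favours translation of the *Atf4* mRNA. The ATF4 protein then raises genes for amino acid synthesis, amino acid transport and tRNA charging, together with genes that stop growth or promote death if the stress persists. In heart muscle this programme is known from mitochondrial disease, in which serine and one-carbon enzymes, *Trib3* and *Gdf15* often rise together. Because ATF4 is controlled largely at translation, its mRNA level is not a measure of its activity.

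Reads on listed genes ranged from 20490875 to 31154155 in uninjected libraries and from 15015038 to 19444404 in injected libraries. Values are CPM, read counts scaled to a common library size. Differences are log2 fold changes of CPM + 1 from limma, which understate the change of genes with low values, and a gene is called when its Benjamini-Hochberg adjusted p is under 0.05. Of all tested genes, 6.69% were called between Xinβ KO and WT hearts, 3.23% as higher and 3.46% as lower. For Xinβ KO/GFP against WT/GFP the share was 13.7%, 6.43% as higher and 7.22% as lower. Between Xinβ KO/YAP and Xinβ KO/GFP hearts 14.8% were called, 7.85% as higher and 6.92% as lower. *Xirp2* was between 0 and 0.972 CPM in the 12 libraries from KO animals and between 56.0 and 168 CPM in the 12 from WT animals. The summed level of 8 cardiomyocyte markers was between 49852 and 87411 CPM in every library, and none of 5 adipocyte markers was listed.

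Some KO libraries stood apart from the others of their group. The summed level of 10 proliferation markers was 678 CPM in uninjected Xinβ KO replicate 4, against 128 to 194 CPM in the other KO replicates and 567 to 718 CPM in WT hearts. In Xinβ KO/GFP hearts it was 459 and 464 CPM in replicates 2 and 3 and 136 and 259 CPM in replicates 4 and 1, against 632 to 716 CPM in WT/GFP hearts. In bulk RNA, fewer cells of a type and less RNA per cell cannot be told apart.

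Per kilobase of exon, *Atf4* had the highest level of the 9 genes, with group means between 42.2 and 53.7 CPM per kb. *Atf5* followed at 11.6 to 16.3 CPM per kb and *Ddit3* at 7.97 to 11.2 CPM per kb, so the 3 transcription factors held the upper end. The enzymes were lower, with *Psat1* at 2.32 to 3.93, *Mthfd2* at 1.21 to 2.88, *Asns* at 1.31 to 1.85 and *Phgdh* at 0.771 to 1.76 CPM per kb. *Trib3* at 1.01 to 1.52 CPM per kb and *Gdf15* at 0.589 to 1.19 CPM per kb were as low, and their means overlapped those of *Phgdh*. *Gdf15* rested on 9 to 75 reads in a library, *Phgdh* on 21 to 89, *Trib3* on 35 to 84 and *Asns* on 42 to 114.

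ATF4 and its partners bind the C/EBP-ATF response element, searched here as TGATGNAAN on both strands in RefSeq promoters of GRCm38.p6, from 250 bases before to 50 after each start. All 9 genes had a promoter in the table, with 12 windows in all, of which 2 held the letters, against 3.95% of all 32851 promoters. Both matches, in *Asns* and *Trib3*, are shown because the element is the sequence through which ATF4 acts on such genes. Capitals mark the match, which lies 23 bases upstream of the start in *Asns* and, on the opposite strand, 13 bases downstream of it in *Trib3*.
Asns, chr6:7693209-7693247, minus strand: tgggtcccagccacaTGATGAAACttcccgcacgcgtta
Trib3, chr2:152344024-152344062, minus strand: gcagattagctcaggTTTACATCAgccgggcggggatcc
A match is a description of the letters, and the promoters without one say only that these letters were not in the window.

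In uninjected hearts, none of the 9 genes was called between Xinβ KO and WT, and 1, *Mthfd2*, had an unadjusted p under 0.05 in limma, as did 22.55% of all tested genes. edgeR and DESeq2 on the recovered reads also called 0 of 9. Differences were above 0 for 3 genes and below 0 for 6. Their median log2 fold change was -0.15, beside 0.0011 over all tested genes.

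In injected hearts, *Mthfd2* fell in Xinβ KO/GFP relative to WT/GFP hearts, and the other 8 genes were not called. An unadjusted p under 0.05 was reached by 4 of the 9, *Mthfd2*, *Phgdh*, *Atf5* and *Gdf15*, with *Gdf15* in the opposite direction to the others. Of all tested genes 27.4% did so. The median log2 fold change of the 9 genes was -0.32, beside -0.0092 over all tested genes. The 1 called gene of 9 is read against the 7.22% of all genes called as lower.

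With YAP in the knockout, *Mthfd2* and *Atf5* rose, and no gene of the 9 was called as lower. An unadjusted p under 0.05 in limma was reached by 4 of the 9, *Mthfd2*, *Atf5*, *Phgdh* and *Atf4*, as by 29.57% of all tested genes. Xinβ KO/YAP and Xinβ KO/GFP hearts differed by a median log2 fold change of 0.28 over the 9 genes, beside 0.010 over all tested genes. Both comparisons within the injected hearts use the same 4 Xinβ KO/GFP libraries, so a low value there lowers one and raises the other. The 2 called genes of 9 are read against 7.85% of all genes called as higher.

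**Figure D1:**
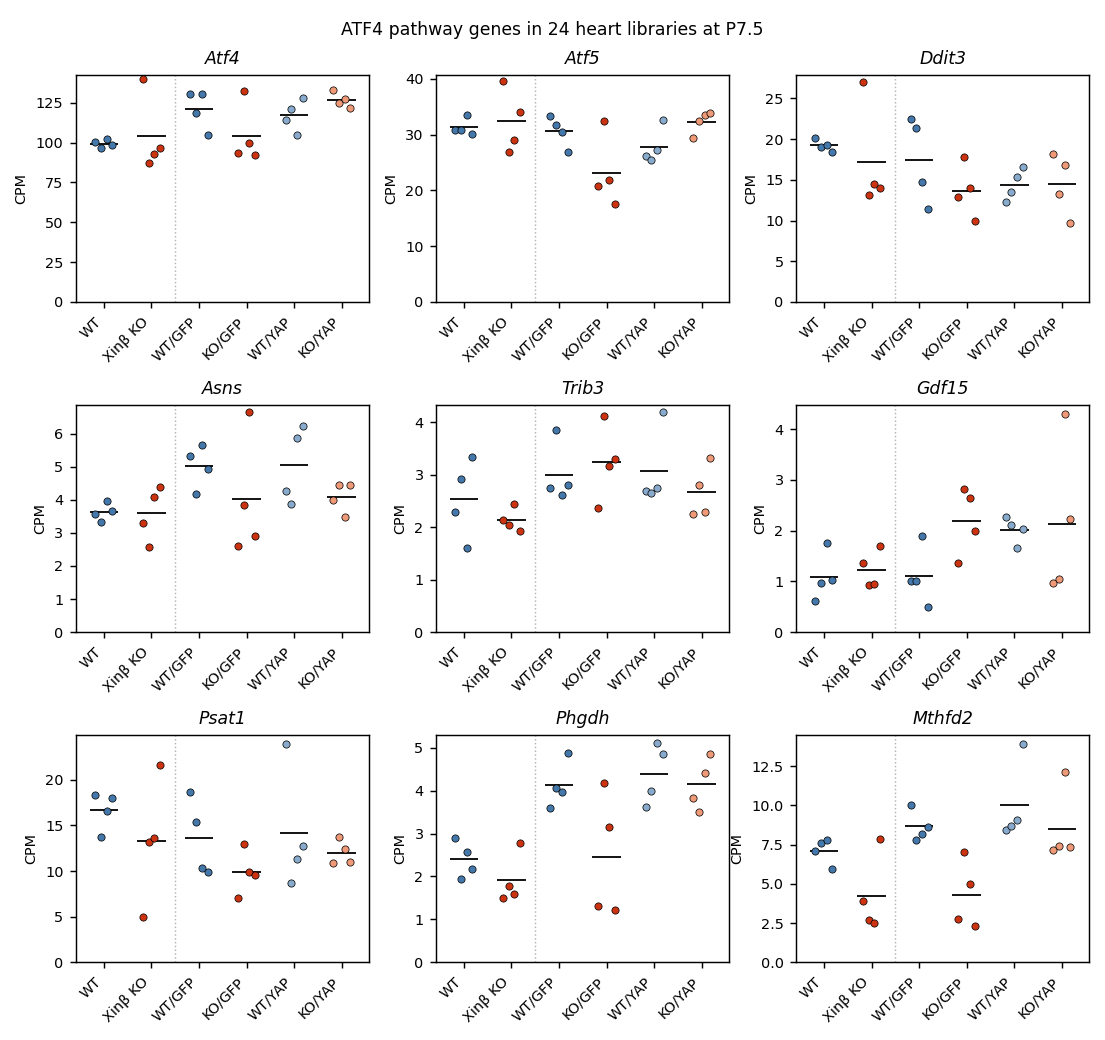
CPM of the 9 genes (vertical axes, from 0) in each of the 24 libraries, by group (horizontal axes), with points for replicates 1 to 4 from left to right and a bar at the group mean. The dotted line separates the uninjected from the injected hearts, which were not normalized together; in *Mthfd2* the Xinβ KO/GFP points, between 2.31 and 7.06 CPM, lie below all WT/GFP points.

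*Atf4* (ENSMUSG00000042406, chromosome 15 from 80255184 to 80257541 of GRCm38), the transcription factor at the centre of the response, was at 100.3, 96.6, 102 and 98.3 CPM in WT replicates 1 to 4. Its values were 140.1, 87.2, 93.1 and 96.9 CPM in Xinβ KO hearts. The first KO library was above all WT libraries and another 2 of the 4 were below them, so the groups overlapped, and the log2 fold change was 0.04 (95% CI -0.28 to 0.37, adjusted p = 0.888). Leaving out Xinβ KO replicate 1 turned it to -0.11.

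After injection the 4 WT/GFP libraries had *Atf4* at 131, 119, 130.3 and 105 CPM, and the 4 Xinβ KO/GFP libraries at 93.7, 132, 99.6 and 91.9 CPM. Of the 4 KO/GFP libraries, 3 were below every WT/GFP library, and replicate 2 was above them all. This gave a log2 fold change of -0.22 (95% CI -0.45 to 0.0097, adjusted p = 0.203). Without Xinβ KO/GFP replicate 2 it was -0.34 and was called (adjusted p = 0.0137).

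The *Atf4* libraries of Xinβ KO/YAP hearts lay close together, at 133, 125, 128 and 122 CPM, and WT/YAP hearts were at 114, 121, 105 and 128 CPM. Against Xinβ KO/GFP the log2 fold change was 0.29 (95% CI 0.060 to 0.52, adjusted p = 0.0850), and the same KO/GFP replicate 2 was the only library of that group within the KO/YAP range. By group mean the order was Xinβ KO/GFP (104 ± 19.0 CPM, SD, n = 4), WT/YAP (117 ± 9.89), WT/GFP (121 ± 12.1) and Xinβ KO/YAP (127 ± 4.87), and the values of all neighbours in it overlapped.

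*Atf5* (ENSMUSG00000038539, chromosome 7 from 44812256 to 44816658), a related factor tied to the mitochondrial unfolded protein response and itself translated under eIF2 phosphorylation, was at 30.9, 30.9, 33.5 and 30.04 CPM in WT and 39.6, 26.9, 29.1 and 34.1 CPM in Xinβ KO hearts, in the order of the replicates. The KO libraries lay on both sides of WT, and the log2 fold change was 0.03 (95% CI -0.26 to 0.33, adjusted p = 0.902). The gene overlaps *Nup62* on the opposite strand by 571 bases and *Il4i1* by 272. The libraries were strand-specific, but whether strand was used in counting is not given in the sources used here.

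In injected hearts *Atf5* was at 33.3, 31.7, 30.4 and 26.8 CPM in WT/GFP and at 20.7, 32.5, 21.9 and 17.5 CPM in Xinβ KO/GFP. Replicate 2 was the only KO/GFP library within the WT/GFP range. The log2 fold change was -0.42 (95% CI -0.72 to -0.11, adjusted p = 0.0690), and -0.58 without that library (adjusted p = 0.00217).

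In Xinβ KO/YAP hearts *Atf5* was at 29.4, 32.4, 33.6 and 33.9 CPM, above 3 of the 4 Xinβ KO/GFP libraries and overlapping the other one. The log2 fold change of 0.50 (95% CI 0.19 to 0.80) was called (adjusted p = 0.0311). Over the fits without 1 library it was between 0.38 and 0.66, and the adjusted p was above 0.05 in 6 of the 16 fits, without Xinβ KO/GFP replicate 1, 3 or 4 or Xinβ KO/YAP replicate 2, 3 or 4, with a highest value of 0.0953. In a fit of only the 8 libraries compared the fold change was again 0.50 and was not called (adjusted p = 0.0997). WT/YAP hearts were at 26.1, 25.4, 27.2 and 32.7 CPM. By group mean the order was Xinβ KO/GFP (23.2 ± 6.49 CPM, SD, n = 4), WT/YAP (27.8 ± 3.30), WT/GFP (30.6 ± 2.79) and Xinβ KO/YAP (32.3 ± 2.05), with overlap between all neighbours. The interaction, the YAP effect in KO minus that in WT hearts, was 0.63 on the log2 scale (adjusted p = 0.0748).

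*Ddit3* (ENSMUSG00000025408, chromosome 10 from 127290774 to 127296288), which encodes the death-promoting factor CHOP, was at 20.2, 19.1, 19.2 and 18.5 CPM in WT and at 27.1, 13.2, 14.5 and 14.001 CPM in Xinβ KO hearts. Replicate 1 was above all WT libraries and the other KO libraries were below all of them. The log2 fold change was -0.21 (95% CI -0.68 to 0.25, adjusted p = 0.606). Without Xinβ KO replicate 1 it was -0.44 and was called as lower (adjusted p = 0.0145).

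Injected hearts showed no separation in *Ddit3*, which was between 11.4 and 22.4 CPM in WT/GFP, 9.97 and 17.8 CPM in Xinβ KO/GFP, 12.2 and 16.5 CPM in WT/YAP and 9.67 and 18.2 CPM in Xinβ KO/YAP. The difference was -0.32 on the log2 scale for Xinβ KO/GFP against WT/GFP (adjusted p = 0.386) and 0.07 for Xinβ KO/YAP against Xinβ KO/GFP (adjusted p = 0.865). The annotation holds a 2nd *Ddit3* locus on the same strand that shares 2925 bases and was not listed in the tables, so how its reads were assigned is not known.

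*Mthfd2* (ENSMUSG00000005667, chromosome 6 from 83305691 to 83325908), a mitochondrial enzyme of one-carbon metabolism that supplies units for nucleotide synthesis, had the largest log2 fold change of the 9 genes in each of 3 comparisons, of the knockout with WT in both tables and of Xinβ KO/YAP with Xinβ KO/GFP. Levels were 7.10, 7.60, 7.82 and 5.93 CPM in WT hearts, and 3.89, 2.67, 2.50 and 7.87 CPM in the 4 Xinβ KO hearts. The first 3 KO libraries were below every WT library, and replicate 4 was above them all. The log2 fold change was -0.73 (95% CI -1.36 to -0.11, adjusted p = 0.151), and without replicate 4 it was -1.02 and was called (adjusted p = 0.00441). With a *Ddx3y* covariate for the sex of the animals and no library left out it was -1.10 and was called (adjusted p = 0.00232).

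In WT/GFP hearts *Mthfd2* was at 10.04, 7.81, 8.21 and 8.66 CPM and in Xinβ KO/GFP hearts at 2.73, 7.06, 4.97 and 2.31 CPM. The groups did not overlap, and the KO/GFP mean was 0.512-fold of the control on the log2(CPM + 1) scale (log2 fold change -0.97, 95% CI -1.49 to -0.44, adjusted p = 0.0161). The adjusted p was above 0.05 without Xinβ KO/GFP replicate 1 (-0.83, 0.0613) or replicate 4 (-0.77, 0.0599), the libraries with the lowest values, and in a fit of only the 8 libraries compared, where the fold change was again -0.97 (0.0607).

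In Xinβ KO/YAP hearts *Mthfd2* was at 7.16, 7.42, 12.1 and 7.32 CPM, above every Xinβ KO/GFP library (log2 fold change 0.91, 95% CI 0.39 to 1.44, adjusted p = 0.0206). The call was lost without Xinβ KO/GFP replicate 1 (0.78, adjusted p = 0.0698) or 4 (0.72, 0.0672) or Xinβ KO/YAP replicate 3 (0.75, 0.0677), and in the fit of only the 8 libraries compared, at an equal fold change (0.91, 0.0794). WT/YAP hearts were at 8.46, 8.68, 9.06 and 13.9 CPM. In the order of the group means, Xinβ KO/GFP (4.27 ± 2.20 CPM, SD, n = 4) was followed by Xinβ KO/YAP (8.51 ± 2.41), WT/GFP (8.68 ± 0.972) and WT/YAP (10.03 ± 2.60), and the last 3 overlapped. The annotation holds a further locus, *Gm43890*, that shares 2799 bases with *Mthfd2* on the same strand and was not listed for either set of hearts. How reads there were assigned is not known.

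**Figure D2:**
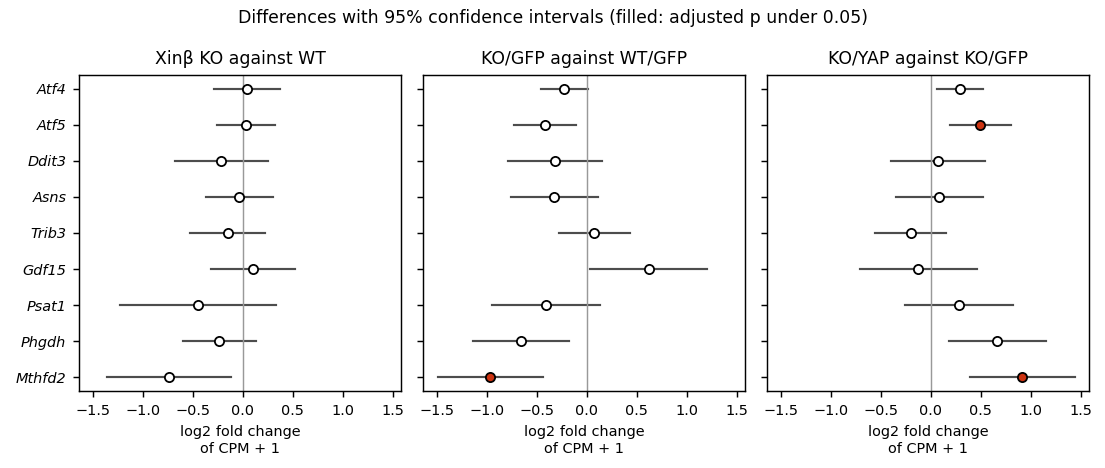
Log2 fold changes of CPM + 1 (horizontal axes) of the 9 genes (rows) in 3 comparisons, with 95% confidence intervals from limma as lines. Filled points have an adjusted p under 0.05: *Mthfd2* at -0.97 and 0.91 in the injected hearts, and *Atf5* at 0.50 with YAP.

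*Phgdh* (ENSMUSG00000053398, chromosome 3 from 98313170 to 98339990), the first enzyme of serine synthesis, was between 1.94 and 2.90 CPM in WT and between 1.51 and 2.78 CPM in Xinβ KO hearts, with the highest KO value in replicate 4. The injected WT/GFP hearts had 3.59, 4.07, 3.97 and 4.88 CPM, and the Xinβ KO/GFP hearts 1.304, 4.18, 3.16 and 1.21 CPM. The KO/GFP libraries split into replicates 1 and 4, far below the controls, and replicates 2 and 3, within or near their range. *Phgdh* had a log2 fold change of -0.66 (95% CI -1.14 to -0.17, adjusted p = 0.0679), and it was called without replicate 2 (-0.88, adjusted p = 0.00653) or replicate 3 (-0.78, 0.0403). It was also called with a *Ddx3y* covariate for the sex of the animals and no library left out (-0.64, adjusted p = 0.0361).

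Xinβ KO/YAP hearts had *Phgdh* at 3.83, 3.51, 4.40 and 4.86 CPM, within the WT/GFP range but for a lowest value just under it. Against Xinβ KO/GFP the log2 fold change was 0.66 (95% CI 0.18 to 1.15, adjusted p = 0.0619), and here too it was called without replicate 2 (0.89, adjusted p = 0.00707) or replicate 3 (0.78, 0.0374) of Xinβ KO/GFP. The group means were 2.46 ± 1.46 CPM in Xinβ KO/GFP (SD, n = 4), 4.13 ± 0.542 in WT/GFP, 4.15 ± 0.602 in Xinβ KO/YAP and 4.39 ± 0.708 in WT/YAP, and neighbours in this order overlapped. Annotated transcripts of 10 other loci, none listed in the tables, match *Phgdh* at 95% identity or more over at least 150 bases, so some of its few reads may have been split among copies.

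*Psat1* (ENSMUSG00000024640, chromosome 19 from 15904678 to 15947337), the next enzyme of serine synthesis, was at 18.4, 13.8, 16.6 and 18.05 CPM in WT and at 4.95, 13.2, 13.6 and 21.6 CPM in Xinβ KO hearts. The KO libraries spanned more than the whole WT range, and the log2 fold change was -0.45 (95% CI -1.23 to 0.34, adjusted p = 0.514). In injected hearts the 4 groups overlapped, at 9.92 to 18.7 CPM in WT/GFP, 7.02 to 13.01 CPM in Xinβ KO/GFP, 8.74 to 23.97 CPM in WT/YAP and 10.9 to 13.7 CPM in Xinβ KO/YAP. Neither the genotype effect under GFP (-0.41, adjusted p = 0.327) nor the YAP effect in the knockout (0.28, adjusted p = 0.492) was called.

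*Asns* (ENSMUSG00000029752, chromosome 6 from 7675169 to 7693254), which makes asparagine, and *Trib3* (ENSMUSG00000032715, chromosome 2 from 152337422 to 152344032), a pseudokinase that feeds back on ATF4, are the genes whose promoter windows are printed above. *Asns* was between 3.33 and 3.96 CPM in WT and between 2.57 and 4.38 CPM in Xinβ KO hearts, with a log2 fold change of -0.031 (95% CI -0.37 to 0.30, adjusted p = 0.924). In WT/GFP hearts *Asns* was at 5.32, 4.18, 5.65 and 4.93 CPM, and in Xinβ KO/GFP hearts at 2.61, 3.86, 6.67 and 2.92 CPM (log2 fold change -0.32, adjusted p = 0.334). Of the KO/GFP libraries, 3 were below all controls and replicate 3 was the highest of the 8, and without it the fold change was -0.55 and was called (adjusted p = 0.0395). With YAP in the knockout *Asns* was between 3.49 and 4.46 CPM (log2 fold change 0.085, adjusted p = 0.820).

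*Trib3* was between 1.61 and 3.34 CPM in WT and between 1.93 and 2.45 CPM in Xinβ KO hearts (log2 fold change -0.15, 95% CI -0.52 to 0.23, adjusted p = 0.658). In injected hearts all 4 groups lay between 2.26 and 4.20 CPM. Its log2 fold change was 0.077 for Xinβ KO/GFP against WT/GFP (95% CI -0.28 to 0.43, adjusted p = 0.816) and -0.20 between Xinβ KO/YAP and Xinβ KO/GFP (95% CI -0.56 to 0.15, adjusted p = 0.449).

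*Gdf15* (ENSMUSG00000038508, chromosome 8 from 70629393 to 70632456), a secreted stress hormone, was between 0.616 and 1.75 CPM in WT and between 0.922 and 1.70 CPM in Xinβ KO hearts (log2 fold change 0.11, 95% CI -0.31 to 0.52, adjusted p = 0.779). The 4 WT/GFP libraries had 1.02, 1.00, 1.90 and 0.493 CPM, and the 4 Xinβ KO/GFP libraries 1.37, 2.81, 2.63 and 1.98 CPM. Of the 4 KO/GFP libraries, 3 were above every control, with a log2 fold change of 0.62 (95% CI 0.035 to 1.21, adjusted p = 0.156). WT/YAP hearts were between 1.66 and 2.26 CPM, and Xinβ KO/YAP hearts at 0.958, 1.05, 4.29 and 2.23 CPM, the widest spread of the injected groups.

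YAP without the knockout, compared in WT/YAP and WT/GFP hearts, left no gene of the 9 called in limma and none with an unadjusted p under 0.05, and edgeR and DESeq2 called none. Of all tested genes 0.0% were called by limma and 0 by edgeR, with 1011 at an unadjusted p under 0.05, and DESeq2 called 11. The 9 log2 fold changes had a median of 0.0099 and ran from -0.23 in *Ddit3* to 0.56 in *Gdf15*. In Xinβ KO/YAP hearts, 0 of the 9 genes were called by limma, edgeR or DESeq2 or had an unadjusted p under 0.05 against WT/GFP, where 0.0206% of all genes were called, or against WT/YAP, where 0.0411% were. The interaction of genotype and vector was called for 7.56% of all genes and for 0 of the 9 by limma, edgeR or DESeq2, and *Atf5*, *Atf4* and *Mthfd2* had an unadjusted p under 0.05, as did 23.67% of all genes.

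Other genes of the pathway and of related stress responses were grouped into 9 lists of 96 genes, of which 91 were tested in each table. Between Xinβ KO and WT hearts 5 of them were called, all as higher, or 5.49%, where 6.69% of all tested genes were called. For Xinβ KO/GFP against WT/GFP it was 12, 8 as higher and 4 as lower, or 13.2% beside 13.7% of all genes. Between Xinβ KO/YAP and Xinβ KO/GFP hearts 15 were called, 10 as higher and 5 as lower, or 16.5% beside 14.8% of all genes. These shares were near those of all genes. Over the fits without 1 library the counts were 1 to 8, 7 to 16 and 10 to 16. A further list of 10 proliferation markers, which are not genes of the response, is described with the cell markers.

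Of 15 genes for the eIF2 kinases, their activators, phosphatase subunits and eIF2 or eIF2B subunits, limma and edgeR called none in either comparison of the knockout with WT. An unadjusted p under 0.05 was found for 1 in uninjected and 3 in injected hearts, beside 22.55% and 27.4% of all tested genes. DESeq2 called 0 and 2 of the 15, beside 1955 of all 15598 and 2393 of all 14597 genes. Without WT/GFP replicate 4, limma called the kinase gene *Eif2ak4* as higher in Xinβ KO/GFP. With YAP in the knockout 1 of 15 rose, *Ppp1r15b*, a phosphatase subunit that reverses eIF2 phosphorylation (log2 fold change 0.25, adjusted p = 0.0287), a call that was lost without Xinβ KO/YAP replicate 1, 2 or 3. Of all genes 7.85% were called as higher in that comparison, so 1 of 15 is near the share of all genes.

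**Figure D3:**
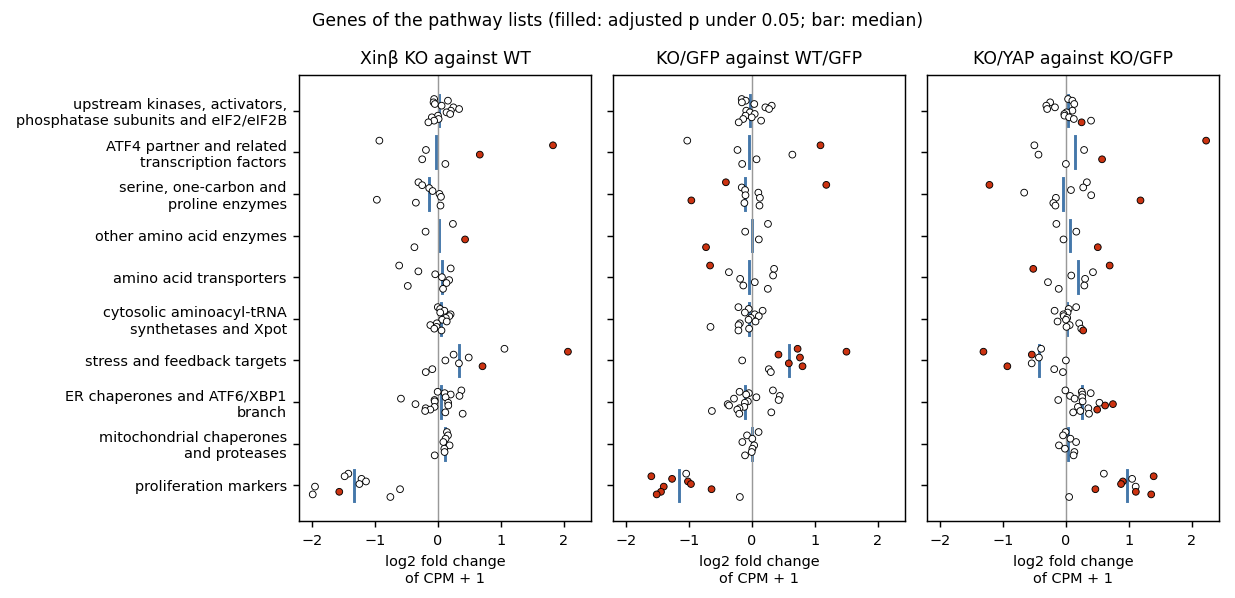
Log2 fold changes of CPM + 1 (horizontal axes) of the genes of 10 lists (rows) in 3 comparisons, with each point a gene, filled where the adjusted p was under 0.05, and a bar at the median of the list. The median of the stress and feedback targets is 0.33 and 0.58 in the comparisons of the knockout with WT and -0.43 with YAP in the knockout.

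A list of stress and feedback targets of ATF4 and related factors held genes that rose in the knockout. Of 9 tested, 2 rose in Xinβ KO hearts and 6 in Xinβ KO/GFP hearts, and 3 fell with YAP in the knockout, where 3.23%, 6.43% and 6.92% of all genes were called in those directions. The lists were chosen with earlier results of these data known, so these counts describe the list and are no test of it. Over all 9 lists together the shares called were near those of all genes. The median log2 fold changes of this list were 0.33, 0.58 and -0.43. Over the fits without 1 library the limma counts of this list were 0 at the lowest (WT replicate 3 left out) and 4 at the highest (Xinβ KO replicate 1 left out) in the first comparison, 4 to 6 in the second and 2 to 4 in the third. In these 3 comparisons edgeR called 2, 4 and 3 of the 9 genes, and DESeq2 called 3, 6 and 4.

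*Ddit4*, an inhibitor of mTORC1 that other stresses and glucocorticoids also induce, was at 23.9, 21.5, 19.6 and 23.04 CPM in WT and at 118, 149, 119.6 and 37.9 CPM in Xinβ KO hearts. Every KO library was above every WT library, replicate 4 by the least (log2 fold change 2.06, 95% CI 1.23 to 2.89, adjusted p = 0.0132), and the call was lost only without WT replicate 3. In WT/GFP hearts it was at 38.1, 41.1, 39.03 and 27.6 CPM and in Xinβ KO/GFP at 129.7, 82.7, 70.3 and 153 CPM (1.499, adjusted p = 0.00853). Xinβ KO/YAP hearts were at 32.02, 37.6, 25.05 and 95.7 CPM, where replicate 4 stayed among the KO/GFP values (-1.31 against Xinβ KO/GFP, adjusted p = 0.0175). That last call was lost without Xinβ KO/GFP replicate 1 or 4 or Xinβ KO/YAP replicate 1 or 3.

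*Stc2*, a secreted glycoprotein induced under endoplasmic reticulum (ER) stress, was between 11.7 and 14.9 CPM in WT and between 17.2 and 29.5 CPM in Xinβ KO hearts (log2 fold change 0.71, adjusted p = 0.0458), a call kept in 2 of the 8 fits without 1 library, those without Xinβ KO replicate 1 or 4. It was between 10.6 and 14.05 CPM in WT/GFP, 16.7 and 31.7 CPM in Xinβ KO/GFP and 8.24 and 13.3 CPM in Xinβ KO/YAP. KO/GFP thus stood apart from WT/GFP (0.80, adjusted p = 0.00828) and from KO/YAP (-0.93, adjusted p = 0.0032). The lower *Stc2* with YAP was not limited to the knockout. WT/YAP hearts were between 8.04 and 8.94 CPM, below every WT/GFP library. The unadjusted p of *Stc2* in limma was under 0.05 for WT/YAP against WT/GFP, without a call, but not in the interaction of genotype and vector. *Eif4ebp1*, a repressor of cap-dependent translation, was between 129 and 143 CPM in Xinβ KO/GFP, above every WT/GFP library at 90.02 to 116 CPM and every Xinβ KO/YAP library at 74.9 to 108 CPM. Its log2 fold changes were 0.42 (adjusted p = 0.0133) and -0.54 (adjusted p = 0.00275), with an interaction of -0.55 (adjusted p = 0.0339).

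*Herpud1*, a component of ER-associated degradation, was between 48.7 and 97.8 CPM in Xinβ KO/GFP and between 34.7 and 55.5 CPM in WT/GFP hearts (log2 fold change 0.76, adjusted p = 0.0116), with an overlap through replicate 2. *Chac1*, which degrades glutathione (0.72, adjusted p = 0.0323), and *Sesn2*, an inhibitor of mTORC1 (0.58, adjusted p = 0.0488), completed the 6 genes that rose. *Chac1* was called in 11 of the 16 fits without 1 library, being lost without Xinβ KO/GFP replicate 1 or 4 or WT/GFP replicate 1, 2 or 4, and *Sesn2* in 4 of 16, those without Xinβ KO/GFP replicate 4, Xinβ KO/YAP replicate 4 or WT/GFP replicate 2 or 4. In uninjected hearts neither these 3 genes nor *Eif4ebp1* were called, at log2 fold changes between 0.25 and 1.05.

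**Figure D4:**
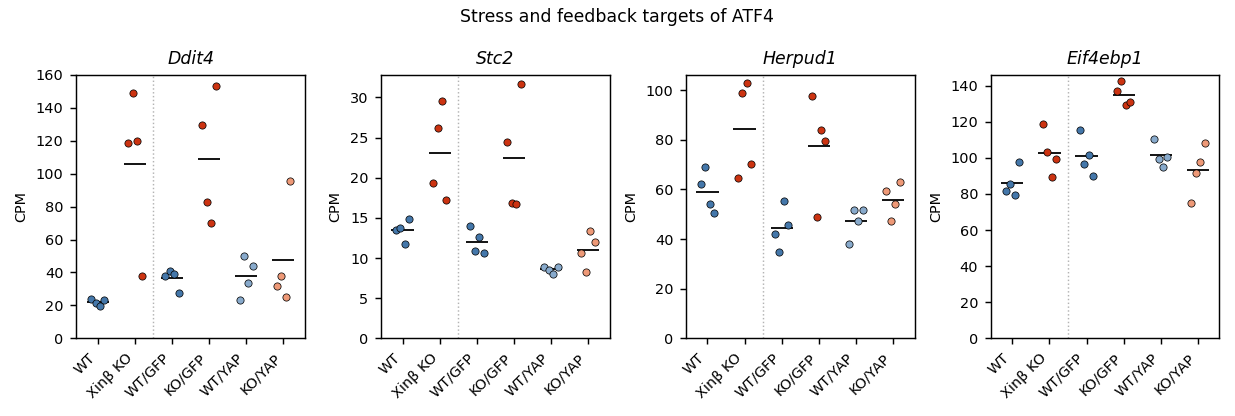
CPM of 4 stress and feedback targets (vertical axes, from 0) in each library by group, with a bar at the group mean. *Ddit4* lies at 70.3 to 153 CPM in Xinβ KO/GFP against 27.6 to 41.1 CPM in WT/GFP, and the dotted line separates the uninjected from the injected hearts.

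Among 6 transcription factors that bind with or near ATF4, *Cebpb* and *Jdp2* rose in Xinβ KO hearts and *Cebpb* in Xinβ KO/GFP hearts. *Jdp2*, a repressor of the AP-1 family (0.66, adjusted p = 0.0271), was called in 2 of the 8 fits without 1 library, those without Xinβ KO replicate 1 or 4. *Cebpb*, a C/EBP factor also active in inflammation, was between 2.53 and 4.88 CPM in WT and between 9.71 and 23.6 CPM in Xinβ KO hearts (log2 fold change 1.82, adjusted p = 0.00559). It was between 7.81 and 19.1 CPM in WT/GFP and between 25.04 and 28.8 CPM in Xinβ KO/GFP hearts (1.09, adjusted p = 0.0102), and -0.50 with YAP in the knockout (adjusted p = 0.204). *Atf3*, a factor induced by many stresses, was not called in the knockout (-0.93 and -1.03) but rose with YAP in it (2.22, adjusted p = 0.00827), as did *Nfe2l1*, a factor for proteasome genes (0.57, adjusted p = 0.0363, lost in 5 of 16 fits, without Xinβ KO/GFP replicate 2 or 3 or Xinβ KO/YAP replicate 1, 2 or 4). The difference of *Atf3* with YAP was not limited to the knockout. Its unadjusted p in limma was also under 0.05 for WT/YAP against WT/GFP and for Xinβ KO/YAP against WT/GFP, without a call. In the interaction of genotype and vector no gene of this list had an unadjusted p under 0.05.

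Most of the other amino acid genes were not called, and the called ones moved in both directions. Limma called 3 of 10 serine, one-carbon and proline enzymes, 1 of 4 other enzymes and 1 of 8 transporters between Xinβ KO/GFP and WT/GFP. With YAP in the knockout it called 2, 1 and 2 of them. Of all genes 13.7% and 14.8% were called in these comparisons. Of 10 serine, one-carbon and proline enzymes, *Pycr1* and *Aldh18a1*, which act in proline synthesis, fell in Xinβ KO/GFP hearts (-0.96, adjusted p = 0.0497, and -0.41, adjusted p = 0.0264), and *Aldh1l1*, which oxidizes formyl folate, was at 1.18. *Aldh1l1* was above 1 CPM only in the 8 Xinβ KO/GFP and WT/YAP libraries and so passed the filter on low values through the groups in which it was high; without any of these 8 it was not tested. Leaving *Aldh1l1* out of the 9 lists gave 11 of 90 called in Xinβ KO/GFP against WT/GFP and 14 of 90 with YAP. *Pycr1* was called in 5 of the 16 fits without 1 library, and without Xinβ KO/GFP replicate 1 or 4 no gene of this list was called; *Aldh18a1* was also lost without WT/GFP replicate 1 or 2. With YAP in the knockout *Pycr1* rose (1.18, lost without Xinβ KO/GFP replicate 4 or Xinβ KO/YAP replicate 3), and *Aldh1l1* was at -1.21, while *Psph*, which follows *Psat1* in serine synthesis (0.13 and -0.16), and *Shmt2*, which takes one-carbon units from serine (0.12 and -0.17), were not called. The neutral amino acid transporter *Slc1a4* fell in Xinβ KO/GFP (-0.66, adjusted p = 0.00383) and rose with YAP (0.69, adjusted p = 0.00287), and the alanine transaminase *Gpt2* did likewise (-0.73 and 0.51, adjusted p = 0.00501 and 0.0363). The YAP call of *Gpt2* was lost in 6 of 16 fits, without Xinβ KO/GFP replicate 1, 2 or 4 or Xinβ KO/YAP replicate 1, 3 or 4. *Slc1a5*, another neutral amino acid transporter, fell with YAP (-0.52, adjusted p = 0.0107). In uninjected hearts the aspartate transaminase *Got1* rose (0.43, adjusted p = 0.0370), a call kept in 2 of 8 fits, those without Xinβ KO replicate 1 or 4. None of 9 serine and proline enzymes and none of 9 transporters was called by limma, edgeR or DESeq2 in uninjected hearts. Of each 9, 1 had an unadjusted p under 0.05, beside 22.55% of all genes in these hearts. Without Xinβ KO replicate 4, *Aldh18a1* and *Slc1a4* were called there as lower.

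Of 13 cytosolic aminoacyl-tRNA synthetase genes, which charge tRNAs and are typical ATF4 targets, and the tRNA exporter *Xpot*, limma, edgeR and DESeq2 called none between the knockout and WT in either table. An unadjusted p under 0.05 was found for 1 in uninjected and 4 in injected hearts, beside 22.55% and 27.4% of all tested genes. Without Xinβ KO/GFP replicate 3, *Aars* and *Yars* were called as lower in that group. *Yars*, for tyrosine, rose with YAP in the knockout (0.27, adjusted p = 0.0374), a call lost without Xinβ KO/GFP replicate 1 or 4 or any 1 Xinβ KO/YAP library, and was called in the interaction (0.45, adjusted p = 0.0322). Of 18 ER chaperone and ATF6 or XBP1 branch genes, these tools again called none in either comparison. Of the 18, 1 and 3 had an unadjusted p under 0.05, beside the same shares of all genes, and *Hspa5*, the main ER chaperone, was at 0.16 and -0.11. Without Xinβ KO/GFP replicate 2, limma called 4 of the 18 in injected hearts, *Atf6*, *Dnajb9*, *Ern1* and *Sdf2l1*, 3 as higher and 1 as lower, and without Xinβ KO replicate 1 it called *Atf6* as higher in uninjected hearts. Of all genes 18.9% and 10.9% were called in these fits. With YAP in the knockout 3 of 18 rose, *Hyou1* (0.75), *Manf* (0.62) and *Pdia6* (0.50), beside 7.85% of all genes. Over the fits without 1 library 2 to 5 rose, and *Hyou1* was lost without Xinβ KO/GFP replicate 2 or 3 or Xinβ KO/YAP replicate 2, 3 or 4. DESeq2 called 5 of the 18 in this comparison. Against WT/GFP and WT/YAP, 16 of the 18 were also above 0 in Xinβ KO/YAP hearts, at medians of 0.26 and 0.25. None of these was called, and 4 and 7 of 18 had an unadjusted p under 0.05 in limma, beside 6.083% and 11.15% of all genes. None of 8 mitochondrial chaperones and proteases was called by limma, edgeR or DESeq2 in these 3 comparisons or had an unadjusted p under 0.05.

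Markers of other processes and cells also differed between the groups. Of 10 proliferation markers, 1 fell in Xinβ KO hearts and 8 in Xinβ KO/GFP hearts, and 6 rose with YAP in the knockout, where 3.46%, 7.22% and 7.85% of all genes were called in those directions. Over the fits without 1 library, 10 fell in Xinβ KO hearts without replicate 4 and 0 in each of the other 7 fits, 5 to 9 fell in Xinβ KO/GFP hearts and 3 to 8 rose with YAP. In the same order of comparisons edgeR called 0, 6 and 4 of the 10 markers, and DESeq2 called 2, 8 and 6. This list too was chosen with earlier results of these data known. *Ccnb1*, a mitotic cyclin (-1.60 and, with YAP, 1.39), *Rrm2*, which makes deoxynucleotides (-1.44 and 1.11), *Top2a*, a topoisomerase (-1.51 and 1.35), and *Pcna*, the replication clamp (-0.64 and 0.47), were called in both injected comparisons. *Pcna* with YAP was called in 7 of 16 fits, and *Rrm2*, the gene called in uninjected hearts (-1.57, adjusted p = 0.0494), in 1 of 8. In the first 3 replicates of Xinβ KO, *Mthfd2* was between 2.50 and 3.89 CPM beside marker sums of 128 to 194 CPM, and in replicate 4 it was at 7.87 CPM beside 678 CPM. In Xinβ KO/GFP replicates 1 and 4 it was at 2.73 and 2.31 CPM beside sums of 259 and 136 CPM, and in replicates 2 and 3 at 7.06 and 4.97 CPM beside 459 and 464 CPM. *Phgdh* was between 1.51 and 1.78 CPM in the first 3 Xinβ KO replicates and at 1.304 (replicate 1) and 1.21 CPM (replicate 4) in Xinβ KO/GFP. The part of proliferation in the *Mthfd2*, *Phgdh* and *Atf5* values was not tested.

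**Figure D5:**
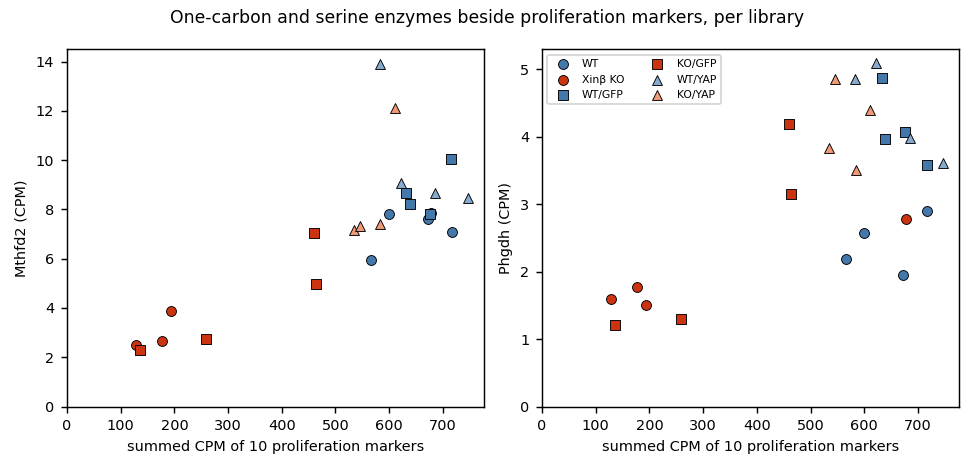
CPM of *Mthfd2* and *Phgdh* (vertical axes) against the summed CPM of 10 proliferation markers (horizontal axes) in each of 24 libraries, with 1 symbol for each group. Uninjected and injected libraries were not normalized together; within each table the libraries with the lowest sums, all from KO animals, also have the lowest *Mthfd2*.

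The summed level of 7 fibroblast markers was 2458 to 3793 CPM in Xinβ KO and 5019 to 5250 CPM in WT hearts, and 2104 to 3504 CPM in Xinβ KO/GFP against 4519 to 5330 CPM in WT/GFP and 4875 to 5863 CPM in Xinβ KO/YAP hearts. Macrophage markers, all 6 listed, summed to 26.4 to 45.3 CPM in Xinβ KO against 68.3 to 85.4 CPM in WT, and to 26.7 to 72.8 CPM in Xinβ KO/GFP against 82.5 to 124 CPM in WT/GFP and 84.01 to 106 CPM in Xinβ KO/YAP. Of 6 neutrophil markers only *S100a8* and *S100a9* were listed. Their sum was 41.7 to 93.2 CPM in Xinβ KO and 26.5 to 39.5 CPM in Xinβ KO/GFP, against 3.73 to 8.92 and 3.70 to 7.75 CPM in the controls, and 1.92 to 9.95 CPM in Xinβ KO/YAP. By replicate, the fibroblast sums were 2597 and 2104 CPM in Xinβ KO/GFP replicates 1 and 4 and 3194 and 3504 CPM in replicates 2 and 3, and 3793 CPM in Xinβ KO replicate 4 against 2458 to 2918 CPM in the other 3. In the same order of Xinβ KO/GFP replicates, 1 and 4 and then 2 and 3, the macrophage sums were 57.7, 72.8, 33.9 and 26.7 CPM, the neutrophil sums 39.5, 39.4, 26.5 and 28.6 CPM and the erythroid sums 872, 735, 1782 and 1267 CPM. Cardiomyocyte markers summed to 69734 to 87411 CPM in Xinβ KO and 62321 to 69543 CPM in WT hearts, and overlapped in injected hearts, at 60716 to 68314 CPM in Xinβ KO/GFP and 49852 to 64159 CPM in WT/GFP. In injected hearts the 6 smooth muscle and pericyte markers summed to 1231 to 1548 CPM in Xinβ KO/GFP, 1695 to 1873 CPM in WT/GFP and 1859 to 2365 CPM in Xinβ KO/YAP, and the 5 erythroid markers to 735 to 1782, 1982 to 5151 and 1094 to 1242 CPM. In uninjected hearts these 2 sums overlapped between the groups. Endothelial markers, 6 of 6 listed, summed to 2219 to 2793 CPM in Xinβ KO/GFP, 2119 to 2263 CPM in WT/GFP and 1990 to 2182 CPM in Xinβ KO/YAP. In uninjected hearts they summed to 2178 to 2723 CPM in Xinβ KO and 2069 to 2294 CPM in WT. Replicate 4 was the only Xinβ KO library within that WT range, and the others were above it. The part of these cell types in the values of *Mthfd2*, *Atf5*, *Ddit4*, *Stc2* and *Cebpb* was not tested.

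The genes most like the members over the 24 libraries, by Pearson r of log2(CPM + 1) centred within each table, were searched among 13734 genes. *Mthfd2* was most like *Cks1b*, a cell cycle kinase subunit (r = 0.95), and *Phgdh* most like *Selenon*, a selenoprotein of the ER (r = 0.90). For *Atf4* it was *Haghl* (r = 0.87), for *Atf5* *Fndc4* (0.86), for *Ddit3* *Comtd1* (0.84) and for *Psat1* *Nudt21* (0.81). *Asns* with *Pola2* (r = 0.73), *Gdf15* with *Rassf7* (0.67) and *Trib3* with *Paip2* (0.63) had weaker matches. No gene of the 9 was the closest match of another, and these values share groups, depth and libraries, so they describe this set alone.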

How the data were processed

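Strand-specific poly(A) RNA libraries of 24 mouse hearts were made from total RNA. Per the labels and the study's methods, the authors trimmed adapters (cutadapt 2.3), mapped to GRCm38 (HISAT2 2.1.0), assembled and counted genes with StringTie 1.3.4, which estimates counts from coverage, and computed CPM with edgeR 3.26.1. The deposited values are a normalized signal, CPM whose columns sum to between 942566 and 1134439, and whole reads could be recovered from all columns (100% of values within 0.2 read). Reads outside listed genes are not in these totals.

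Symbols and positions came from GENCODE M21, which matched 15655 of 15667 and 15314 of 15327 identifiers. Genes with more than 1 CPM in 4 of 8 uninjected or 8 of 16 injected libraries were tested, 15598 and 14597 genes. Values were transformed to log2(CPM + 1) and compared by limma 3.58.1 under its mean-variance trend, p-values were adjusted over all tested genes after Benjamini and Hochberg, with 1 model for the 16 injected libraries. The study's methods name Fisher's exact test. Alternatives were other scalings, filters and pseudocounts, edgeR 4.0.16 and DESeq2 1.42.0 on recovered reads, a *Ddx3y* covariate for the sex of the animals, a replicate block and leaving out each library. Confidence intervals are 95% intervals, and p-values measure only the spread between these samples.

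All 9 genes are described. From each pathway list up to 4 genes are named, those called with the smallest p in Xinβ KO/GFP against WT/GFP and then in uninjected hearts, and others named were chosen after their values were seen. The genes and lists were chosen with earlier results of these data known. Fits were checked on simulated counts in R 4.3.3, and figures were drawn in Python 3.11.15 with matplotlib 3.10.9. *Cth*, *Cbs*, *Slc7a3* and *Fgf21* were not listed in either table. RefSeq promoters were searched for the response element.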

Additional observations from a re-analysis of the deposited data

Results flagged for a closer look

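In 5 of 54 groups of 4 values, 1 library lay so far from the others that the gap exceeded Dixon's 95% critical value for its share of the group's range, where chance gives about 2.7 of 54. *Ddit3* was at 27.06 CPM in Xinβ KO replicate 1, against 13.2 to 14.5 CPM in the other KO libraries. *Trib3* was at 3.849 CPM in WT/GFP replicate 2 and at 4.20 CPM in WT/YAP replicate 4. *Mthfd2* was at 13.91 CPM in WT/YAP replicate 4 and at 12.12 CPM in Xinβ KO/YAP replicate 3, where the other libraries of these groups were between 7.16 and 9.06 CPM.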

How the results depend on the processing

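The calls for *Mthfd2* and *Atf5* and the count of called genes changed with single libraries and in fits of only the 8 libraries compared. With only the 8 libraries compared, 0 of the 9 genes were called for Xinβ KO/GFP against WT/GFP (1 in the 16-library model) and 0 between Xinβ KO/YAP and Xinβ KO/GFP (2 in that model). Genes called over the 9 lists and the proliferation markers together, here called pathway genes, fell from 20 to 9 and from 21 to 12, and the share of all tested genes called from 13.7% to 6.55% and from 14.8% to 8.75%, while between Xinβ KO/YAP and WT/YAP it rose from 0.0411% to 0.102%. With the *Ddx3y* covariate, 1 of the 9 was called between Xinβ KO and WT (*Mthfd2*), with 21 pathway genes (6 without it) and 12.4% of all genes (6.69% without it), 2 of the 9 for Xinβ KO/GFP against WT/GFP (*Mthfd2* and *Phgdh*) and 0.0137% of all genes for Xinβ KO/YAP against WT/GFP. DESeq2 called 12.5% of genes between Xinβ KO and WT, 0.0754% between WT/YAP and WT/GFP, 0.164% between Xinβ KO/YAP and WT/GFP (0.0206% in limma) and 0.486% between Xinβ KO/YAP and WT/YAP, where 1 was a pathway gene (0 in limma), and 10 pathway genes in the interaction (6 in limma). Log2 fold changes near 0 in uninjected hearts changed sign under quantile normalization in *Atf4* (-0.036) and *Asns* (0.034) and with the covariate in *Atf5* (-0.042) and *Gdf15* (-0.028). The cause was not tested.

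Same-numbered libraries did not deviate together (correlations of -0.19 to 0.098 in uninjected and -0.17 to 0.14 in injected hearts), so replicate numbers were not taken as pairs. With the replicate number as a block, 1 of the 9 genes was called between Xinβ KO/YAP and Xinβ KO/GFP (not *Atf5*, adjusted p = 0.0501), 2 pathway genes and 2.47% of all genes between Xinβ KO and WT, and 3 pathway genes and 4.84% of all genes in the interaction (7.56% without the block). No other count of the 9 genes changed with the block.

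With each library left out in turn, the count of the 9 genes called ran from 0 to 1 between Xinβ KO and WT, from 0 to 4 for Xinβ KO/GFP against WT/GFP, from 0 to 4 between Xinβ KO/YAP and Xinβ KO/GFP and from 0 to 2 in the interaction. The counts of 4, and that of 2 in the interaction, came without Xinβ KO/GFP replicate 2, and those of 0 in the comparisons of Xinβ KO/GFP with WT/GFP came without replicate 1 or 4 of that group. Pathway genes called were between 1 (WT replicate 3 left out) and 18 (Xinβ KO replicate 4 left out, 10 of them proliferation markers), ran from 13 to 25 (without Xinβ KO/GFP replicates 1 and 2), from 13 (without Xinβ KO/YAP replicate 3) to 24 (without Xinβ KO/GFP replicate 2) and from 2 to 14 (without Xinβ KO/GFP replicate 3) in the same order. The share of all genes called was between 2.05% (WT replicate 1 left out) and 13.1% (Xinβ KO replicate 4 left out) in uninjected hearts. It ran from 8.66% to 18.9% for Xinβ KO/GFP against WT/GFP (Xinβ KO/GFP replicates 4 and 2 left out), from 10.2% to 17.1% for Xinβ KO/YAP against Xinβ KO/GFP and from 4.31% to 10.1% in the interaction, and from 0.0% to 0.00689% for WT/YAP against WT/GFP, 0.0% to 0.0275% for Xinβ KO/YAP against WT/GFP and 0.0% to 0.11% for Xinβ KO/YAP against WT/YAP.

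Leaving out libraries also turned the sign of differences that were not called. In uninjected hearts *Atf4* ran from -0.11 to 0.12, *Atf5* from -0.065 to 0.12, *Asns* from -0.11 to 0.084 and *Gdf15*, which passed the filter in 4 of the 8 fits, from -0.0093 to 0.17. *Trib3* ran from -0.020 to 0.18 between Xinβ KO/GFP and WT/GFP, and *Ddit3* from -0.059 to 0.24, *Asns* from -0.051 to 0.31 and *Gdf15* from -0.42 to 0.058 between Xinβ KO/YAP and Xinβ KO/GFP. The other settings changed no count of the 9 genes. The 9 to 75 reads behind *Gdf15* in a library, and 21 to 89 behind *Phgdh*, limit what these 2 genes can show.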
